A study of Mus musculus with 71 samples.

Results

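Hippocampal messenger RNA bound to phosphorylated ribosomes was compared between mice fed a high-fat and sugar diet (HFS ad lib) and mice fed normal chow (NC ad lib), both 12 h after training in an object recognition memory task (ORM+12 h). The members of this comparison were the 6 HFS ad lib and the 6 NC ad lib mice labelled as ORM-trained and sampled at +12 h, which are 12 of the 71 mice in the count table, and every gene with at least 10 counts in total was tested. All were wild-type male C57BL/6J mice, put on their diet as juveniles at weaning, and food was always available to both groups compared. Training lasted 10 minutes in the light phase, in an arena with identical objects, and the hippocampus was taken at zeitgeber time 15 (zt15), in the dark phase. The home cage mice taken at zt15 without training (HC zt15, 6 per diet) and the mice taken 1 h after training (ORM+1 h, 6 per diet) were used only to show where the +12 h difference departs from theirs. The ORM+1 h mice belong to a separate experiment and are labelled zt3, so that between them and the ORM+12 h mice the hours since training cannot be told apart from the clock time or the experiment. In 1 place the HFS mice on time-restricted feeding (HFS TRF) are set beside them, which had free access to the same diet at first and later access within a daily window only. The diet was the difference under study between the groups compared, and the labels give no cage, litter or collection day for any mouse. The p-values measure the spread between mice within groups, estimated over all 71 mice in 12 groups unless another fit is named.

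In pS6-TRAP an antibody against the phosphorylated form of ribosomal protein S6 pulls down ribosomes, with the messages on them, from homogenized tissue. S6 is phosphorylated downstream of the mTOR and ERK pathways when cells are active, so the method draws on all cell types of the hippocampus, weighted towards active ones. In this tissue the trained state is followed by waves of transcription and protein synthesis, and chaperones, ribosome assembly factors and the proteasome make up the machinery by which proteins are produced, folded and removed. In such bulk samples fewer cells of a type and less RNA per cell cannot be told apart, and neither can less RNA and weaker capture by the antibody.

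Library totals were alike, at 47039991 to 56819855 counts in the NC ad lib mice and 44964018 to 57452006 in the HFS ad lib mice. The markers of hippocampal fields were present in all 12 mice. Summed over 8 genes each, CA1 markers were at 623 to 884 CPM in these mice. Dentate gyrus markers were at 630 to 762 CPM in NC ad lib (median 683) and 525 to 671 CPM in HFS ad lib (median 586). Those of CA3 and CA2 were at 1140.5 to 1330 CPM. On the same sum the 8 striatum markers were at 121 to 462 CPM and the 8 cortex markers at 174 to 228 CPM. The summed level of 9 neuronal markers was 17041 to 18412 CPM (counts scaled to the library total) in NC ad lib and 14569 to 18229 CPM in HFS ad lib, against 89.4 to 229.6 CPM for 9 markers of thalamus and habenula. Genes encoded in mitochondrial DNA took 0.0182 to 0.105% of the counts in NC ad lib and 0.0285 to 0.0751% in HFS ad lib.

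Libraries that stood apart touch every result and are given first. Ttr (ENSMUSG00000061808), whose product transthyretin is made in the brain chiefly by the choroid plexus, was at 278, 274, 174.5, 3160, 404 and 242 CPM in NC ad lib replicates 1 to 6. It was at 8896, 1194, 8602, 116, 15266 and 518 CPM in HFS ad lib replicates 1 to 6. HFS replicates 1, 3 and 5 and NC replicate 4 were thus above 2000 CPM, and the groups overlapped. The log2 difference of Ttr, HFS minus NC, was 2.93 (SE 1.26), with an adjusted p of 0.171 in edgeR's quasi-likelihood test. All 16 listed choroid plexus markers had a positive difference (median 2.61), 12 of them with an unadjusted p under 0.05 and 0 with an adjusted p under 0.05. Their summed level was 379 to 5529 CPM in NC ad lib and 263 to 22434 CPM in HFS ad lib, and none of them was at 0 in any of these mice. At HC zt15 the Ttr difference was of opposite sign (log2 -1.83). HFS replicate 4 stood apart in another way. It had the highest level of the 6 HFS mice in 359 of the 421 protein-coding genes of at least 1 CPM that were lower in HFS ad lib, closest to the NC mice.

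**Figure D1:**
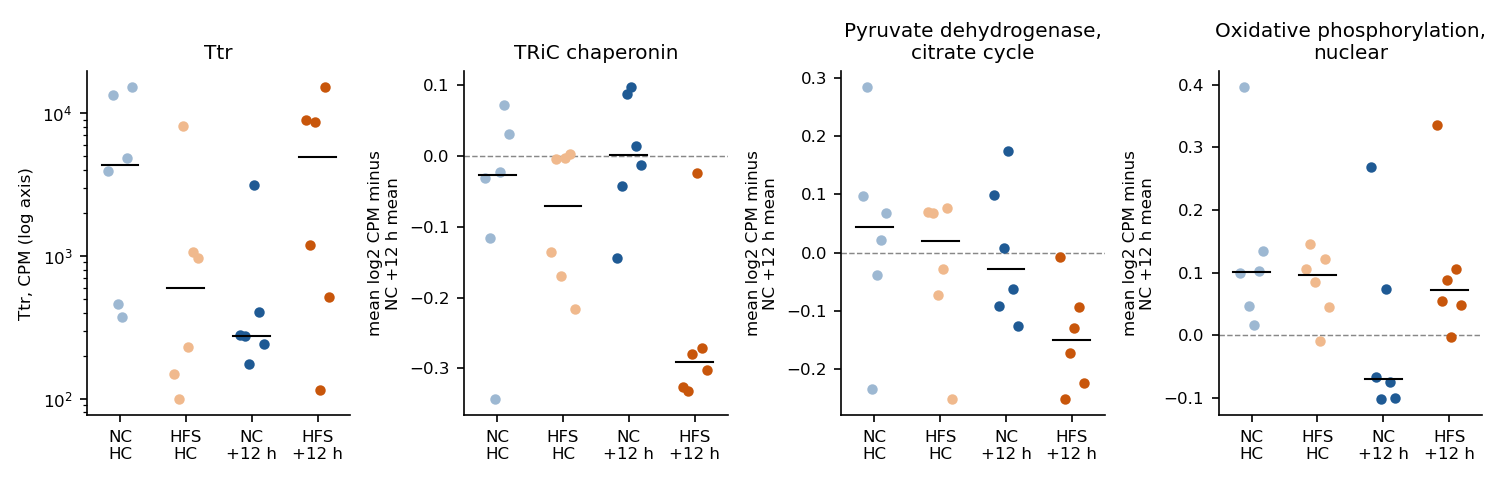
Per-mouse values in the home cage (HC, zt15) and 12 h after training (+12 h), with the median of 6 mice as a line: Ttr in CPM on a log axis, and for 3 gene groups the mean log2 CPM of the members of at least 1 CPM minus the mean of the trained NC ad lib mice. Trained HFS mice lay at -0.33 to -0.27 for the chaperonin group except for 1 mouse at -0.02, while their Ttr spanned 116 to 15266 CPM.

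At ORM+12 h more genes were lower than higher in HFS ad lib. Of 30141 genes tested, 230 were higher (0.763% of the genes tested) and 454 lower (1.51%), at an adjusted p under 0.05, or 684 in all (2.27%). The differences were small. The median log2 difference was 0.37 among the higher genes and -0.30 among the lower, and 62 higher and 27 lower genes differed more than 1.5-fold. The median over all genes tested was 0. Over the 12899 protein-coding genes of at least 1 CPM it was -0.03. Of these, 175 were among the higher genes (1.36%) and 421 among the lower (3.26%). The counts of called genes in the gene lists below are to be read beside these shares. The ranges of the groups did not overlap in 41 of the 230 higher and 65 of the 454 lower genes, where 0.71% of all genes tested had ranges without overlap.

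The number of genes called changed with the model, with the mice that entered it and with single mice. A fit of only the 12 mice compared called 0 genes, with 4561 at an unadjusted p under 0.05 and a smallest adjusted p of 0.143, against 6400 at an unadjusted p under 0.05 in the model of all 12 groups. A fit of the 35 mice of the same experiment called 0 (smallest adjusted p 0.0674), and the DESeq2 Wald test called 551 higher and 883 lower. Leaving out NC replicates 3, 4 or 5 gave 159, 74 and 260 genes. Leaving out HFS replicates 1, 2, 3, 5 or 6 gave 242, 216, 144, 305 and 155 genes, and leaving out HFS replicate 4 gave 1896. Without the 4 mice above 2000 CPM of Ttr 8 genes were called, 6 of them higher, in a comparison of 5 NC with 3 HFS mice. All 684 genes kept the sign of their difference in these fits, and 683 did without NC replicate 1, which left 872 genes called. The 684 were chosen on the same mice, so a kept sign says little about them. Without the 4 mice above 2000 CPM of Ttr, 541 of them had an unadjusted p under 0.05 and 5 were called. With a choroid plexus score as a covariate 206 higher and 273 lower genes were called, and 394 of the 684 were among them. The part of choroid plexus RNA in the result beyond these values was not tested.

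**Figure D2:**
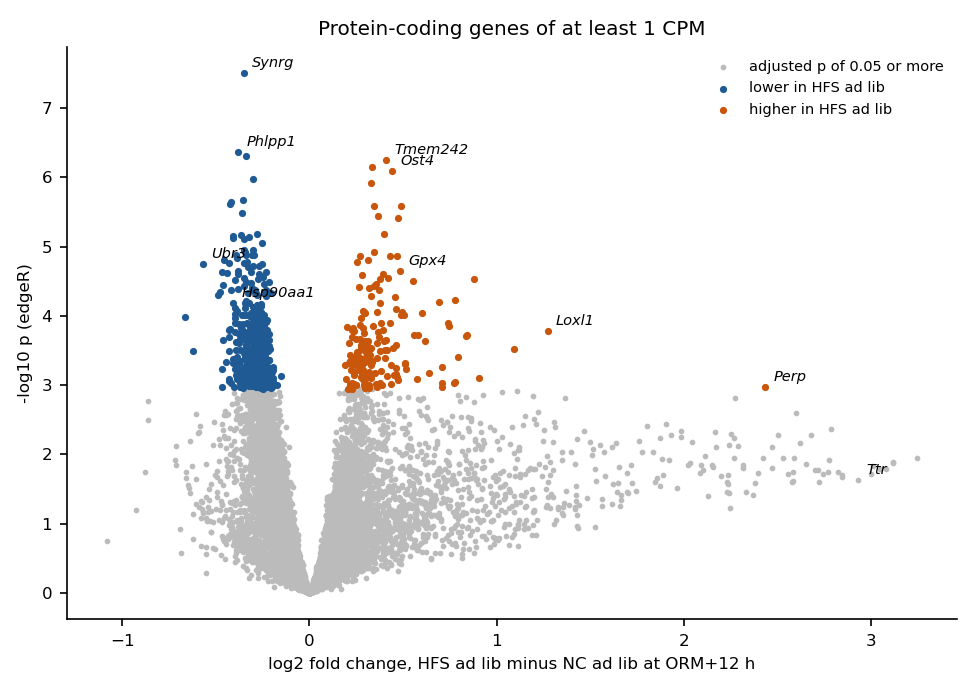
Log2 difference at ORM+12 h, HFS ad lib minus NC ad lib, against -log10 of the unadjusted p of edgeR's quasi-likelihood test, for the 12899 protein-coding genes of at least 1 CPM. Lower genes (421) outnumber higher ones (175), and the genes drawn with the largest positive differences, Ttr among them, mostly had an adjusted p of 0.05 or more.

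The gene with the smallest p was Synrg (ENSMUSG00000034940; GRCm39 chromosome 11, 83855089 to 83936074, plus strand), which encodes synergin gamma, a partner of the AP-1 clathrin adaptor in vesicle traffic. Synrg was at 117 to 125 CPM in NC ad lib (median 123) and at 84.7 to 114 CPM in HFS ad lib (median 94.5). The highest HFS mouse, replicate 4, lay below the lowest NC mouse. The log2 difference was -0.35 (SE 0.056, adjusted p = 9.43e-04 by edgeR). Phlpp1 (ENSMUSG00000044340; chromosome 1, 106099381 to 106321980, plus strand), a phosphatase that removes the activating phosphate of Akt, was at 100 to 110 CPM in NC ad lib (median 107) and 72.3 to 94 CPM in HFS ad lib (median 80.6). Its ranges did not overlap either, and its log2 difference was -0.38 (adjusted p = 0.00415). Rnmt, the methyltransferase of the messenger RNA cap, was at 72.6 to 84.4 CPM in NC ad lib and 58.2 to 71.6 CPM in HFS ad lib, again without overlap (log2 -0.34, adjusted p = 0.00415).

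Of the other lower genes with the smallest p, Mrtfb, a coactivator of serum response factor, fell from a median of 349 CPM in NC ad lib to 255 CPM in HFS ad lib (log2 -0.42). Leo1, a subunit of the PAF1 complex that travels with RNA polymerase II, fell from 38.5 to 30.7 CPM (log2 -0.41), and Med15, a subunit of Mediator, from 102 to 76 CPM (log2 -0.37). The ranges of Mrtfb and Leo1 did not overlap between the diets. Map9, a microtubule-associated protein, fell from a median of 176 to 136 CPM (log2 -0.36). Gucy1b1, the beta subunit of the soluble guanylate cyclase that nitric oxide activates, fell from 156 to 109 CPM (log2 -0.43), but HFS replicate 4 was at 161 CPM, inside the NC range of 140 to 171 CPM. The largest differences among the lower protein-coding genes of at least 1 CPM were those of Pcdhgb7 (log2 -0.66, SE 0.16), Cdyl2 (-0.62) and the ubiquitin ligase gene Ubr3 (-0.57). Pcdhgb7 is a clustered protocadherin, whose messages share exons with the other members of its cluster, so its count is uncertain.

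Among the higher genes with the smallest p were several of short messages. Tmem242 (ENSMUSG00000004945; chromosome 17, 5460524 to 5490535, minus strand), a mitochondrial membrane protein, was at 35.3 to 44.7 CPM in NC ad lib (median 41.6) and 48.4 to 67.9 CPM in HFS ad lib (median 51.6). Every HFS mouse lay above every NC mouse, with a log2 difference of 0.41 (SE 0.074, adjusted p = 0.00415). Srsf9 (ENSMUSG00000029538; chromosome 5, 115465189 to 115476335, plus strand), a splicing factor of the SR family, was at 43.3 to 49.8 CPM in NC ad lib and 53.9 to 62.1 CPM in HFS ad lib (log2 0.33, adjusted p = 0.00415). Polr2m (ENSMUSG00000032199; chromosome 9, 71385719 to 71393257, minus strand), which associates with RNA polymerase II, was at 165 to 186 CPM in NC ad lib and 208 to 231 CPM in HFS ad lib (log2 0.33, adjusted p = 0.00462). The groups did not overlap for either gene, and HFS replicate 4 was the lowest HFS mouse in both.

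Ost4, a small subunit of the oligosaccharyltransferase that glycosylates proteins, rose from a median of 25.4 to 35.3 CPM (log2 0.44), with NC replicate 1 at 34 CPM inside the HFS range. Bola3, which takes part in the assembly of iron-sulfur clusters, rose from 12.1 to 16 CPM (log2 0.49), and Elof1, a transcription elongation factor, from 44.6 to 60.8 CPM (log2 0.40), both without overlap. Stk11, which encodes the kinase LKB1 that activates AMPK, rose from a median of 103 to 139 CPM (log2 0.35). Vegfb, a growth factor of the VEGF family, rose from 42.7 to 56.7 CPM (log2 0.47). Cops9, Tomm5 and Tmem234 had log2 differences of 0.36, 0.35 and 0.27.

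**Figure D3:**
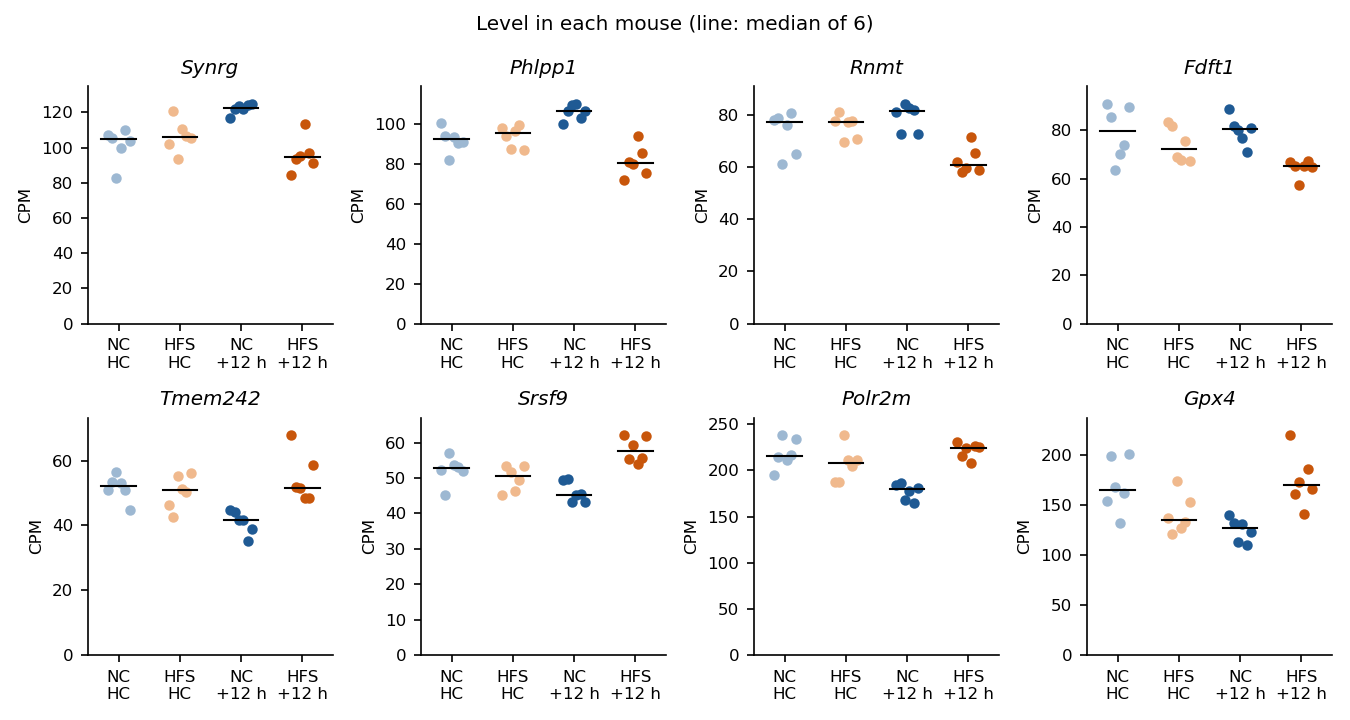
CPM in each mouse for 4 genes that were lower and 4 that were higher in HFS ad lib at ORM+12 h, in the home cage at zt15 (HC) and 12 h after training (+12 h), with the median of 6 mice as a line. For Synrg the trained NC mice lie at 117 to 125 CPM above the 84.7 to 114 CPM of trained HFS mice, while the home cage mice of both diets overlap.

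Among the higher protein-coding genes of at least 1 CPM, the 3 with the largest differences were highest in mice with high Ttr. Perp, a membrane protein of desmosomes, was at 0.907 to 1.89 CPM in NC ad lib and at 10.9, 2.11, 8.38, 0.725, 16 and 2.83 CPM in HFS replicates 1 to 6 (log2 2.43, adjusted p = 0.0483). Loxl1, an enzyme that cross-links elastin, was at 1.85 to 3.4 CPM in NC ad lib and at 9.54, 3.84, 7.87, 3.75, 12.4 and 4.27 CPM in HFS ad lib (log2 1.27, adjusted p = 0.0235). For both genes the 3 highest HFS mice were replicates 1, 3 and 5, which also had the highest Ttr. Without the 4 mice above 2000 CPM of Ttr, the log2 difference was 0.73 for Perp and 0.49 for Loxl1, with adjusted p of 0.811 and 0.622. Tmem232, which had a log2 difference of 1.10, was also highest in HFS replicates 1, 3 and 5.

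The chaperonin TRiC is a ring of 8 different subunits that folds newly made actin, tubulin and other proteins. Of its 8 genes 7 were lower and 0 higher (median log2 -0.25), with Cct6a at -0.26, Cct8 at -0.29, Tcp1 at -0.23 and Cct2 at -0.24. Cct6a was at 235 to 273 CPM in NC ad lib (median 249), and at 201, 209, 206, 247, 199 and 198 CPM in HFS replicates 1 to 6. All HFS mice but replicate 4 lay below the NC range. On the mean of the 8 genes, relative to the NC mean, HFS mice were at -0.33, -0.33, -0.28, -0.02, -0.27 and -0.30 on the log2 scale and NC mice at -0.14 to 0.10. At HC zt15 the median difference of the list was -0.01, and on the same scale the mice of both diets lay at -0.34 to 0.07. The count of 7 lower TRiC genes was 0 without NC replicate 4, 1 without NC replicate 3, and 3, 3, 4 and 4 without HFS replicates 1, 2, 3 and 6. This list, like those of the proteasome, ribosome assembly, initiation factors, tRNA synthetases, nuclear pore, citrate cycle, mitochondrial import, mitochondrial ribosome, glutathione peroxidases, and tubulins and actins, was written after the called genes had been seen, so its count is a description.

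Among the substrates of TRiC, 3 of 21 tubulin and actin genes were lower (median log2 -0.20). Tuba1a fell from a median of 580 to 474 CPM, Tuba4a from 1174 to 937 CPM and Actg1 from 608 to 491 CPM, and each has close paralogs or pseudogenes that could share reads. The count of 3 was 0 without NC replicate 4, 1 without NC replicate 3 or HFS replicate 6, and 7 without HFS replicate 4.

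Heat shock proteins hold other proteins in a folded or foldable state. Of 13 heat shock and cold shock genes 2 were lower and 0 higher (median log2 -0.27). This list was not written from the called genes, but was chosen with earlier results of these data known. Hsp90aa1 (ENSMUSG00000021270; chromosome 12, 110656842 to 110669166, minus strand), the inducible cytosolic HSP90, was at 665 to 928 CPM in NC ad lib (median 774) and at 530, 576, 501, 805, 574 and 573 CPM in HFS replicates 1 to 6. Only HFS replicate 4 lay within the NC range, and the log2 difference was -0.41 (SE 0.096, adjusted p = 0.0188). Hspd1, the mitochondrial chaperonin HSP60, fell from a median of 173 to 146 CPM (log2 -0.26). The classical stress-induced genes Hspa1a and Hspa1b had log2 differences of -0.18 and -0.32 with adjusted p of 0.47 and 0.218. Neither Hsp90aa1 nor Hspd1 was called without NC replicate 3 or 4 or HFS replicate 3. The count of 2 was 1 without HFS replicate 1 and 5 without HFS replicate 4.

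Heat shock factor 1 binds inverted repeats of the pentamer nGAAn, and SREBP-2, which drives cholesterol synthesis, binds sterol regulatory elements. The letters of such sites were searched on both strands of the RefSeq promoters (GRCm38.p6, 250 bases before to 50 after the start site) of 7 of the 8 TRiC genes, of 1 of the 2 lower heat shock genes and of 4 of the 5 lower cholesterol and fatty acid genes. The promoters of Cct4, Hsp90aa1 and Fdft1 were not analysed here. For each gene with a match 1 window is printed, around the longest motif found, to show these letters in their context. The capitals mark the match, and the windows run 5′ to 3′ on the strand of the gene.
Hspd1, repeat of 3 pentamers, chr1:55088055-55088084, minus strand: gcggggccTTCCGGAAGGTTCtagaacgga
Cct2, GAANNTTC, chr10:117063399-117063428, minus strand: ccccaagtgaaGAAGTTTCtagcaggacct
Cct5, TTCNNGAA, chr15:31601862-31601891, minus strand: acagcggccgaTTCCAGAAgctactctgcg
Cct6a, TTCNNGAA, chr5:129787369-129787398, plus strand: gcgtaagacttTTCGAGAAgaccccgcaga
Hmgcs1, TCACCCCAC, chr13:119690204-119690233, plus strand: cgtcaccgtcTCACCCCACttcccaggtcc
Acat2, CACCCCAC, chr17:12960888-12960917, minus strand: tggatcctccaCACCCCACcctaacccgac
The repeat of 3 pentamers (TTC, 2 bases, GAA, 2 bases, TTC) was present in 0.662% of all 27025 promoters, GAANNTTC in 9.04% and TTCNNGAA in 9.6%. The shorter motifs lie within the longer one. In Hspd1 a second repeat of 3 pentamers, read on the opposite strand and placed 5 bases downstream, overlaps the one in capitals, as do the shorter motifs. Of 7 TRiC genes with a promoter in the RefSeq table, 1 held GAANNTTC, 2 held TTCNNGAA and 0 the repeat of 3. TCACCCCAC was present in 0.614% and the shorter CACCCCAC, which lies within it, in 3.3% of all promoters. A match describes letters in a window and not a bound site.

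Proteasome genes were lower in part. Of 39 proteasome genes 7 were lower and 0 higher (median log2 -0.19). The strongest were subunits of the regulatory particle, with Psmd2 falling from a median of 283 to 230 CPM, Psmd13 from 101 to 79.3 CPM, Psmd12 from 109 to 83.6 CPM and Psmd6 from 105 to 77.8 CPM. The largest of these log2 differences was that of Psmd6, at -0.38 (adjusted p = 0.027). HFS replicate 4 was the highest HFS mouse for Psmd2, at 281 CPM. The count of 7 was 0, 2 and 3 without NC replicates 4, 3 and 5. It was 1 without HFS replicate 2, 3 or 6, 2 without HFS replicate 5 and 17 without HFS replicate 4.

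Some factors that build and start the ribosome were lower. Of 33 nucleolar ribosome assembly factors 8 were lower and 0 higher (median log2 -0.22). Utp4, a component of the processome of the small subunit, was at 49.9 to 58.5 CPM in NC ad lib and 35.6 to 47.6 CPM in HFS ad lib, without overlap (log2 -0.36, adjusted p = 0.00711). Nop58 and Nop56, core proteins of box C/D particles that methylate ribosomal RNA, had log2 differences of -0.32 and -0.28. Tcof1, which takes part in transcription of ribosomal DNA, was at -0.34, and Ncl, nucleolin, at -0.30. The count of 8 was 3 without NC replicate 4, 4 without HFS replicate 3, 5 without NC replicate 3 or HFS replicates 2 or 6, and 15 without HFS replicate 4.

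Of 59 translation initiation factors 7 were lower and 0 higher (median log2 -0.13). Eif5b, which joins the ribosomal subunits, fell from a median of 146 to 116 CPM, and Eif3c, a subunit of eIF3, from 291 to 230 CPM. Eif3l, Eif2a, Eif4a1, Eif4a3 and Eif3a were the others. The count of 7 was 0 without NC replicate 4 or HFS replicate 3 or 6, 1 without HFS replicate 2, 2 without NC replicate 3 or 5 or HFS replicate 1 or 5, and 11 without HFS replicate 4. Of 18 cytosolic tRNA synthetases 2 were lower, Sars1 (log2 -0.24) and Hars1 (-0.25), and all 18 had a negative difference (median -0.20). Neither was called without NC replicate 3 or 4 or HFS replicate 1, 2, 3, 5 or 6, while 11 of the list were called without HFS replicate 4, 6 without NC replicate 2 and 1 without NC replicate 5.

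Transport between nucleus and cytoplasm runs through the nuclear pore, with karyopherins as carriers. Of 34 genes of the nuclear pore and its karyopherins 4 were lower and 0 higher (median -0.21). Tpr, of the nuclear basket, fell from a median of 86.6 to 70.7 CPM (log2 -0.30), and Kpnb1, importin beta, from 240 to 196 CPM (log2 -0.28). Nup88 and Nup50 had log2 differences of -0.35 and -0.19. The count of 4 was 12 without HFS replicate 4 and 7 without NC replicate 1.

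Most genes of the ribosome itself were not called. Of 85 cytosolic ribosomal protein genes 3 were higher and 0 lower, with a median of 0.06. Rps29 was at 94.6 to 139 CPM in NC ad lib (median 113) and 134 to 182 CPM in HFS ad lib (median 164), with a log2 difference of 0.47 (adjusted p = 0.0073). Rpl41 rose from a median of 143 to 190 CPM (log2 0.43) and Rps28 from 56.9 to 75.2 CPM (log2 0.32). These messages are among the shortest of the list and have processed pseudogenes, so their counts are uncertain. Rpl10 and Fau, the first of the list, had log2 differences of 0.00 and 0.06. The mean of the ribosomal protein genes overlapped between the diets, at -0.12 to 0.28 in NC ad lib and -0.05 to 0.25 in HFS ad lib. An offset for transcript length and GC content turned the median to 0.00 (2 higher and 2 lower). In that fit Rps28 had a log2 difference of 0.08 (adjusted p = 0.5003). The 3 higher genes became 8 without NC replicate 1 and 5 without NC replicate 2 or HFS replicate 4.

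**Figure D4:**
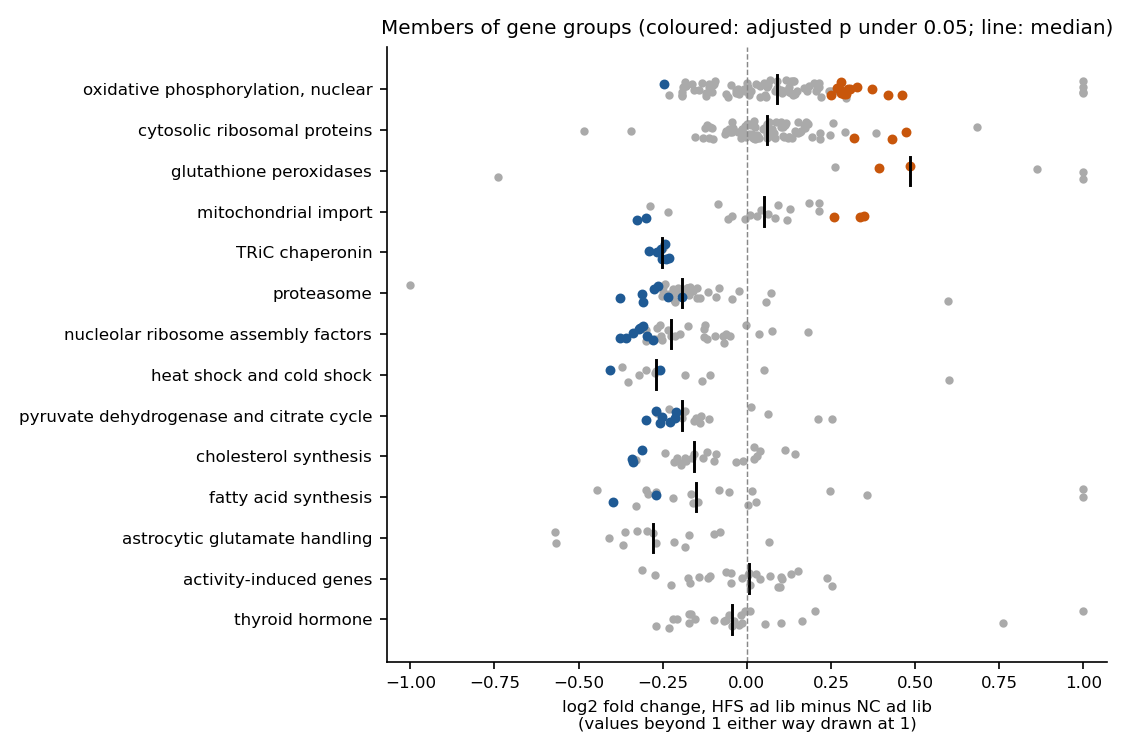
Log2 difference at ORM+12 h, HFS ad lib minus NC ad lib, for every tested member of 14 gene groups. Coloured points had an adjusted p under 0.05 in edgeR, vertical bars are group medians, and values beyond 1 either way are drawn at 1. All 8 chaperonin genes lie between -0.29 and -0.23, while the nuclear-encoded oxidative phosphorylation genes spread around a median of 0.09.

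Among mitochondrial genes, the small subunits of the respiratory complexes and the enzymes of the citrate cycle that passed differed in opposite directions. Oxidative phosphorylation passes electrons along complexes I to IV and makes ATP at complex V. Of its 97 nuclear genes 14 were higher and 1 lower (median log2 0.09). The higher ones were small subunits and an assembly factor, such as Ndufa1 of complex I (median 76.6 to 106 CPM, log2 0.42), Uqcr10 of complex III (158 to 199 CPM, log2 0.33), Cox8a of complex IV (431 to 535 CPM, log2 0.29) and Atp5f1e of complex V (log2 0.37). With an offset for transcript length and GC content Ndufa1 was at 0.23 (adjusted p = 0.0482), while Uqcr10 was at 0.10 (adjusted p = 0.144) and Cox8a at 0.06 (adjusted p = 0.369). The lower one, Uqcrc2, is a large core subunit of complex III (log2 -0.25, adjusted p = 0.0347). Atp5f1b, the catalytic subunit of complex V, was at 1886 to 2148 CPM in NC ad lib and 1708 to 1881 CPM in HFS ad lib, without overlap, but had an adjusted p of 0.0931 (log2 -0.16). On the mean of the members of at least 1 CPM, NC replicate 1 was at 0.27 and the other NC mice at -0.10 to 0.07, and HFS replicate 1 was at 0.34 and the other HFS mice at 0.00 to 0.11.

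Leaving out any mouse but NC replicate 2 moved the 14 higher genes more than 1.5-fold, to between 1 (without HFS replicate 1) and 24 (without HFS replicate 4). It was 2 without NC replicate 3, 4 or 5, 5 without NC replicate 6 or HFS replicate 6, 4 and 6 without HFS replicates 2 and 3, 9 without HFS replicate 5 and 22 without NC replicate 1. With the offset for length and GC content 10 were higher and 6 lower, and the median was -0.01. With the choroid plexus score as a covariate 5 were higher and 1 lower. Of the 13 genes encoded in mitochondrial DNA 0 passed, with 2 at an unadjusted p under 0.05. Their summed level was 169 to 967 CPM in NC ad lib (median 212) and 250 to 647 CPM in HFS ad lib (median 532), so the ranges overlapped.

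Of the enzymes that feed the electron transport chain some were lower. Of 22 genes of pyruvate dehydrogenase and the citrate cycle 7 were lower and 0 higher (median log2 -0.19). They included 4 of the pyruvate dehydrogenase complex, Pdhb (median 130 to 107 CPM), Dld (134 to 107 CPM), Dlat (269 to 219 CPM) and Pdhx (59.9 to 51 CPM). Citrate synthase (Cs, log2 -0.21) and Sucla2 (-0.25) were also lower. The ranges of Pdhx and Sucla2 did not overlap, and for Pdhb, Dld and Dlat HFS replicate 4 was the HFS mouse within the NC range. The count was 0 without NC replicate 4 or HFS replicates 2 or 6, 1 without NC replicate 3 or HFS replicate 3, 2 without HFS replicate 1, 4 without NC replicate 5 and 11 without HFS replicate 4.

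Mitochondrial import genes passed in both directions, and few mitochondrial ribosomal protein genes passed. Of 22 import genes the small translocase subunits Tomm5, Tomm7 and Timm8b were higher (log2 0.35, 0.34 and 0.26), and Timm44 and the receptor Tomm70a were lower (-0.30 and -0.33). Of 78 mitochondrial ribosomal protein genes, Mrps21, Mrpl51 and Mrpl54 were higher (0.29, 0.28 and 0.29) and Mrps22 lower (-0.35). The median was -0.04 and turned to 0.03 without NC replicate 1. Thus 3.85% of this list were higher and 1.28% lower, beside 1.36% and 3.26% of the protein-coding genes of at least 1 CPM. Of the import genes 1 was higher and 0 lower without NC replicate 3 or 4 or HFS replicate 6, and 1 was higher and 1 lower without NC replicate 5 or HFS replicate 1, 2 or 3. Of the mitochondrial ribosomal protein genes 7 were higher without NC replicate 1, and 0 were higher or lower without NC replicate 3 or 4.

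Of 7 glutathione peroxidase genes 2 were higher and 0 lower. Gpx4 (ENSMUSG00000075706; chromosome 10, 79883000 to 79892273, plus strand), the enzyme that reduces lipid hydroperoxides in membranes, was at 140, 132, 113, 131, 110 and 123 CPM in NC replicates 1 to 6. It was at 220, 161, 173, 141, 186 and 166 CPM in HFS replicates 1 to 6. Every HFS mouse lay above every NC mouse, and the 3 highest were those with high Ttr. The log2 difference was 0.49 (SE 0.11, adjusted p = 0.0131), 0.34 with the choroid plexus score as a covariate (adjusted p = 0.0193) and 0.34 without the 4 mice above 2000 CPM of Ttr (adjusted p = 0.363). Gpx1 rose from a median of 61.9 to 81.4 CPM (log2 0.39). The count of 2 was 4 without HFS replicate 4 and 2 without each of the other trained mice.

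Genes of lipid synthesis were lower where they passed. Cholesterol is made in the brain itself, from acetyl-CoA, and of 25 genes of this pathway 3 were lower and 0 higher (median log2 -0.16). Hmgcs1, which makes HMG-CoA, was at 142 to 177 CPM in NC ad lib (median 171) and 113 to 152 CPM in HFS ad lib (median 127), with a log2 difference of -0.34 (adjusted p = 0.0188). Fdft1 (ENSMUSG00000021273; chromosome 14, 63382189 to 63417027, minus strand), squalene synthase, was at 71.1 to 88.8 CPM in NC ad lib and 57.4 to 67.2 CPM in HFS ad lib, without overlap (log2 -0.31, adjusted p = 0.0131). Acat2 fell from a median of 23.6 to 18.3 CPM (log2 -0.34). On the mean of 24 genes the NC mice lay at -0.08 to 0.08 and the HFS mice at -0.18 to -0.07. The windows of Hmgcs1 and Acat2 with the letters of a sterol element are those printed above. The count of 3 was 1 without NC replicate 4 or HFS replicate 3.

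Of 20 fatty acid synthesis genes 2 were lower and 0 higher (median log2 -0.15). Fasn, fatty acid synthase, was at 228 to 283 CPM in NC ad lib (median 252) and at 164, 181, 174, 254, 188 and 188 CPM in HFS replicates 1 to 6 (log2 -0.40, adjusted p = 0.0216). Acly, which supplies acetyl-CoA, fell from a median of 176 to 136 CPM (log2 -0.27). In both genes only HFS replicate 4 lay within the NC range. Acaca and Acacb, the acetyl-CoA carboxylases, had log2 differences of -0.08 and 1.20, with adjusted p of 0.623 and 0.217. Acacb was highest in HFS replicates 1, 3 and 5, the mice with high Ttr. Neither Fasn nor Acly was called without NC replicate 3 or 4 or HFS replicate 1, 2, 3 or 6, and 1 was called without NC replicate 5 or 6 or HFS replicate 5. Of 28 fatty acid oxidation and ketone genes 0 passed, with 2 at an unadjusted p under 0.05.

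In several neuronal and signalling lists 1 gene passed, where 3.26% of the protein-coding genes of at least 1 CPM were lower and 1.36% higher. Gria2, the AMPA receptor subunit that limits calcium entry, was at 353 to 448 CPM in NC ad lib (median 401) and 268 to 374 CPM in HFS ad lib (median 326), with a log2 difference of -0.32 (adjusted p = 0.0479). It was the only one of 22 AMPA and NMDA receptor genes to pass, and Gria1 had a log2 difference of -0.15 (adjusted p = 0.345). Gphn, the gephyrin scaffold of inhibitory synapses, was the only one of 18 genes of GABA receptors and their scaffold (log2 -0.26), and Cacna2d1, an auxiliary subunit of calcium channels, the only one of 36 sodium and calcium channel genes (log2 -0.39, ranges of 79.9 to 101 and 58 to 72.6 CPM). Calb1, a calcium-binding protein of granule cells, fell from a median of 192 to 139 CPM (log2 -0.43) and was the only one of 8 dentate gyrus markers to pass. Of these 8 markers 7 had a negative difference (median log2 -0.16). In the 12 fits that each left out 1 of the mice compared, Gria2 and Gphn passed in 2, Calb1 in 3 and Cacna2d1 in 4, each with a negative difference throughout.

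Among 17 genes of intracellular calcium release Ryr1 passed (log2 0.84, adjusted p = 0.0246), but it was at 29.5 CPM in HFS replicate 2 and 5.6 to 12.4 CPM in the other HFS mice, against 4.86 to 8.14 CPM in NC ad lib. Without that mouse its log2 difference was 0.34 (adjusted p = 0.272). Ryr2 had a log2 difference of 0.32 (adjusted p = 0.227). Cry2, a clock repressor, fell from a median of 213 to 174 CPM (log2 -0.24) and was the only one of 21 clock genes, with Bmal1 at -0.24 (adjusted p = 0.163) and Clock at 0.01. Foxo3, a transcription factor that insulin restrains, was the only one of 30 insulin and IGF genes (log2 -0.22), with Insr at -0.01 and Irs1 at -0.12. Asns, asparagine synthetase, was the only one of 17 genes of endoplasmic reticulum stress (log2 -0.26), and its list had a median of 0.18, with Hspa5 and Xbp1 at 0.18 and 0.19. With 1 mouse left out in turn, Cry2 passed in 6 of 12 fits, Asns in 4 and Foxo3 in 2.

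No gene passed in the other lists. Of 26 activity-induced genes 0 passed and 1 had an unadjusted p under 0.05, with a median of 0.01 and Fos at 16.4 to 35.4 CPM in NC ad lib and 15.9 to 43 CPM in HFS ad lib. Of 25 thyroid hormone genes 0 passed and 6 had an unadjusted p under 0.05 (median -0.04), with Dio2 at -0.21 and Dio3 at -0.06. Of 15 genes of astrocytic glutamate handling 0 passed and 3 had an unadjusted p under 0.05. Their median was -0.28, with Slc1a2 at -0.30 (SE 0.21) and Slc1a3 at -0.57 (SE 0.31), and 14 of 15 were negative. On their mean the NC mice lay at -0.36 to 0.39 and the HFS mice at -0.88 to 0.24. The 10 astrocyte markers had a median of -0.42, with Gfap at 245 to 517 CPM in NC ad lib and 184 to 334 CPM in HFS ad lib (log2 -0.47, SE 0.23, adjusted p = 0.238).

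The remaining cell type lists also had 0 genes called. The median log2 difference was -0.16 for 9 neuronal markers, with Snap25 at -0.19 and Rbfox3 at -0.01, and 0.02 for 10 markers of inhibitory neurons. It was -0.15 for CA1, 0.02 for CA3 and CA2, -0.19 for neurogenesis, -0.07 for myelinating oligodendrocytes, -0.10 for oligodendrocyte precursors and -0.01 for microglia. It was 0.77 for ependyma, 0.20 for meninges and fibroblasts, 0.43 for endothelial cells, -0.28 for mural cells and -0.10 for red blood cells. The markers of thalamus and habenula, striatum and cortex had medians of -0.28, 0.07 and -0.13. Collagens and laminins had a median of 0.37, with 16 of 55 at an unadjusted p under 0.05, and their HFS mice spanned 162 to 531 summed CPM against 165 to 243 CPM in NC ad lib.

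The remaining functional lists also had 0 genes called. Their median log2 differences were those of glucocorticoid targets (-0.14), feeding peptides and receptors (0.03), inflammation and complement (0.09), interferon response (0.17), postsynaptic scaffolds and plasticity kinases (-0.03), and voltage-gated potassium channels (0.05). Fkbp5, a glucocorticoid target, had a log2 difference of -0.23 (adjusted p = 0.12), and Npy and Npy1r had 0.00 and -0.29 (adjusted p of 1 and 0.143). In the lists of this and the preceding paragraphs 0 genes called means an adjusted p of 0.05 or more in edgeR, which does not show that the levels were equal.

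The called genes differed in the length and base composition of their messages. Protein-coding genes of at least 1 CPM were divided into 5 equal bins of canonical transcript length. In the shortest bin (108 to 2080 bases) 3.26% were higher and 1.78% lower, and in the longest bin (from 5827 bases) 0.814% were higher and 3.14% lower. By GC content, 0.465% were higher and 4.92% lower in the lowest bin (34.1 to 44.7% GC), against 2.36% higher and 1.12% lower in the highest bin (from 56.1% GC). Across these 12899 genes, which share the libraries, the Spearman correlation of the log2 difference was -0.138 with length and 0.245 with GC content. The slope on GC content was taken relative to the mean of all mice, in log2 units per 10 percentage points. It was 0.002 in HFS replicate 4 and 0.092 to 0.135 in the other HFS mice, against -0.062 to 0.096 in NC ad lib. An offset that removed the trends of each mouse on length and GC content left 307 higher and 399 lower genes, of which 412 were among the 684. The part of RNA quality or library preparation in these values was not tested.

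**Figure D5:**
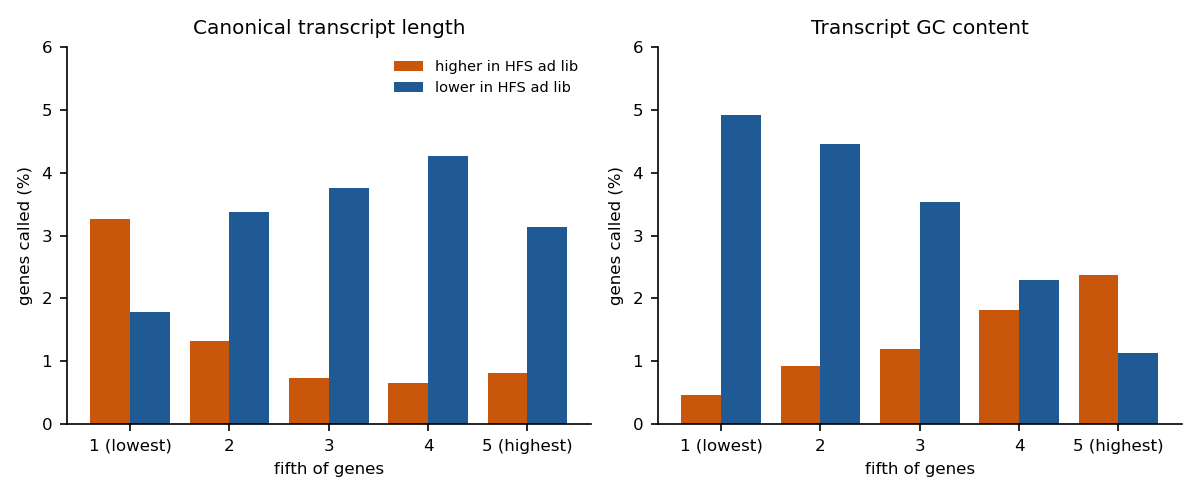
Percentage of the protein-coding genes of at least 1 CPM that were higher or lower in HFS ad lib at ORM+12 h, in 5 equal bins of canonical transcript length (left) and of transcript GC content (right). Higher genes were most frequent in the shortest bin (3.26%) and lower genes in the bin of lowest GC content (4.92%).

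The +12 h difference was set against that of untrained mice at the same time of day. At HC zt15 19 genes were called (0.063% of 30141), all higher in HFS ad lib, and 0 of the 684 genes were among them. They included 2 of the 10 listed markers of microglia, Cx3cr1 (log2 1.31 at HC zt15 and -0.01 at ORM+12 h) and C1qa (1.34 and -0.08), and at ORM+12 h none of the 19 passed. One library stood apart here. The summed level of the microglia markers was 508.6 CPM in HFS ad lib HC zt15 replicate 2 and 77.4 to 87.6 CPM in the other mice of its group, against 52.1 to 89.9 CPM in NC ad lib HC zt15. The count at HC zt15 was 0 without NC ad lib HC zt15 replicate 1, 4, 5 or 6 or HFS ad lib HC zt15 replicate 2, and 1 without NC ad lib HC zt15 replicate 2. It was 40, 37, 38, 29 and 31 without HFS ad lib HC zt15 replicates 1, 3, 4, 5 and 6. Of the 230 higher genes 71 had the same sign at HC zt15 and their median there was -0.04. Of the 454 lower genes 219 had the same sign and their median was 0.00.

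The levels of the protein-coding called genes of at least 1 CPM show where the trained groups lay, though these genes were chosen on those groups. Relative to the mean of trained NC mice, the 421 lower genes were at -0.38 to -0.07 in trained HFS mice, -0.35 to -0.04 in home cage NC mice (median -0.09) and -0.29 to -0.04 in home cage HFS mice (median -0.07). The 175 higher genes were at 0.17 to 0.44 in trained HFS mice (median 0.42), 0.13 to 0.35 in home cage NC mice (median 0.22) and 0.06 to 0.33 in home cage HFS mice (median 0.08). In the trained HFS mice on time-restricted feeding, who share the NC reference, the lower genes were at -0.41 to -0.20 and the higher at 0.17 to 0.42.

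A test of the difference between the diet effects at ORM+12 h and HC zt15 passed for 32 genes (0.106%), with 5643 at an unadjusted p under 0.05. Of these genes 13 were among the 230 higher and 9 among the 454 lower, beside 0.763% and 1.51% of all genes tested. This test uses the same 12 trained mice as the +12 h comparison, so the overlap is no separate support for its calls. Synrg had a difference of -0.42 between the diet effects (adjusted p = 0.015), with home cage medians of 105 CPM in NC ad lib and 106 CPM in HFS ad lib. Gpx4 had a difference of 0.75 (adjusted p = 0.0271), and its home cage medians were 165 CPM in NC ad lib and 135 CPM in HFS ad lib, the reverse of the trained order. Mice above 2000 CPM of Ttr were reversed too, with 4 NC and 1 HFS in the home cage against 1 NC and 3 HFS after training. The part of choroid plexus RNA in the Gpx4 reversal was not tested. Map1b, a microtubule-associated protein of axons and dendrites, had a log2 difference of -0.33 at ORM+12 h and 0.20 at HC zt15, and Ninj1, a protein of membrane rupture, 0.60 and -0.34. Map1b and Ninj1 were chosen after their values were seen. The count of 32 was 2 with the choroid plexus score as a covariate, 0 without the 4 trained mice above 2000 CPM of Ttr, and 0 in a fit of only the 4 groups compared.

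That count of 32 also moved more than 1.5-fold without 20 of the 24 mice of these groups. It was 3, 16, 18 and 12 without NC ad lib ORM+12 h replicates 3, 4, 5 and 6, and 69 and 93 without replicates 1 and 2. It was 2, 14, 5, 19 and 19 without HFS ad lib ORM+12 h replicates 1, 2, 3, 5 and 6, and 1259 without replicate 4. It was 6, 175 and 5 without NC ad lib HC zt15 replicates 3, 4 and 6. It was 3, 949, 17, 13 and 135 without HFS ad lib HC zt15 replicates 2, 3, 4, 5 and 6.

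One hour after training 0 genes were called between the diets in edgeR (0% of 30141), with 2881 at an unadjusted p under 0.05, and the DESeq2 Wald test called 25. Of the 230 genes higher at +12 h 162 were positive at ORM+1 h (median 0.07), and of the 454 lower genes 408 were negative (median -0.10). Over the protein-coding genes of at least 1 CPM the median at ORM+1 h was -0.02. Fdft1 had a log2 difference of -0.25 and Fasn of -0.21 at ORM+1 h, and Synrg of -0.15, all with adjusted p over the threshold. The list medians there were -0.09 for TRiC, -0.12 for cholesterol synthesis and -0.23 for fatty acid synthesis, of the same sign as at +12 h. Those of glutathione peroxidases (-0.33), nuclear oxidative phosphorylation (-0.03) and choroid plexus (-0.55) had the opposite sign to +12 h. The difference between the diet effects at ORM+1 h and ORM+12 h was not tested.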

How the data were processed

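Ribosomes were precipitated from mouse hippocampus with an antibody to phosphorylated S6, and libraries were made from 50 ng of RNA with a stranded mRNA kit and read as pairs. Per the submitters' processing notes and the study's methods, the authors trimmed reads with Trim Galore 0.6.7 (cutadapt 3.4), aligned them with HISAT2 2.2.0 and counted uniquely placed reads per gene with featureCounts of Subread 2.0.3 on GRCm39. The notes also list mm9, and the strand setting of the counting is not given in the sources used here. The deposited values are raw counts of 57010 genes in 71 mice, not normalized, and 68.5% of the values above 0 are even. Whether both reads of a pair were counted is not given in the sources used here, so the totals may exceed the number of fragments. No precipitation input was used here.

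Counts were tested with edgeR 4.0.16 (R 4.3.3), with TMM scaling, the quasi-likelihood test and Benjamini-Hochberg adjustment at 0.05, in a model of all 12 groups and 71 mice, on 30141 genes whose counts over all mice summed to 10 or more. CPM are on the TMM-scaled library sizes. Groups came from the labels. There were 43 gene lists, and 11 more were written after the called genes were seen. The comparison, the lists and the tests were chosen with earlier results of these data known. Named genes were the 12 higher and 12 lower protein-coding genes of at least 1 CPM with the smallest p, the 3 of each direction with the largest difference, up to 4 called genes per list, the first 2 of each list, and Ttr. Other genes were named after their values were seen, from the called members of the lists or from the test against HC zt15. Some genes that these rules would name are not reported here.

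Gene coordinates are those of GENCODE on GRCm39, in which 56310 identifiers matched, and promoter windows are those of RefSeq on GRCm38.p6. Transcript length and GC content are those of the canonical transcript. The choroid plexus score of a mouse was the mean over the markers of the log2 CPM, each centred and divided by its SD over all mice. DESeq2 1.42.0, other filters and scalings, smaller sets of mice, the replicate number as a block, a choroid plexus covariate, an offset for length and GC content, and leaving out each mouse were the alternatives. The main fit was tested on simulated counts with genes changed 1.25-, 1.5-, 2- and 3-fold. It recovered 14, 27, 43 and 48 of 50 genes of each size, with 5 false calls. A fit of the 12 mice compared recovered 10, 24, 44 and 49, with 6 false calls. The simulated mice of a group did not differ in choroid plexus or GC content, so these values may not hold for the real libraries. The highest correlation between 2 of the 12 mice was 0.99318, and no library was a copy of another. Library totals were 44964018 to 57452006 counts, and p-values cover the spread between mice.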

Additional observations from a re-analysis of the deposited data

Results flagged for a closer look

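Of 172 groups of 6 mice (86 genes in each of the 2 trained groups), 27 held a mouse whose gap to the nearest of the others, divided by the range of the group, passed Dixon's limit for 6 values, where chance gives about 5% of independent groups. In 17 of the 27 that mouse was HFS ad lib ORM+12 h replicate 4. It was the highest of the HFS mice for Eif3c (ratio 0.805), Psmd2 (0.773), Cct6a (0.764), Eif5b (0.763), Acly (0.745), Gucy1b1 (0.735), Asns (0.723), Hsp90aa1 (0.707), Dld (0.699), Tuba1a (0.698), Dlat (0.691), Fasn (0.688), Pdhb (0.676), Cct2 (0.663), Sars1 (0.662) and Gphn (0.637), and the lowest for Tmem234 (0.649). It was also the lowest HFS mouse in 90 of the 175 higher protein-coding genes of at least 1 CPM. The 172 groups share the same 12 libraries, and their genes were mostly chosen on these mice. The 5% is therefore no yardstick for the count of 27.

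Other HFS ad lib mice stood apart at the low end, replicate 3 for Fdft1 (0.798), replicate 6 for Timm44 (0.706) and replicate 2 for Pcdhgb7 (0.665). Among the NC ad lib mice, replicate 1 was the highest for Ost4 (0.67) and Cops9 (0.644) and the lowest for Nop56 (0.746). Replicate 4 was the highest for Ttr (0.71), and the lowest mouse was replicate 2 for Med15 (0.69), replicate 6 for Acat2 (0.681) and replicate 5 for Hmgcs1 (0.651).

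The diet difference at ORM+12 h differed from that at HC zt15 in edgeR's test of the interaction for 8 of the genes chosen by the naming rule, beside Map1b and Ninj1, which were chosen after their values were seen. On the log2 scale, the difference between the 2 diet effects was 0.7514 for Gpx4, 0.5808 for Ost4, 0.4054 for Polr2m and 0.3987 for Srsf9. It was -1.005 for Cdyl2, -0.4757 for Tcof1, -0.4169 for Synrg and -0.3829 for Rnmt. The number of such genes over all genes tested was 32. The interaction test uses the same trained mice in which these 8 genes were called.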

How the results depend on the processing

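At ORM+12 h, where 684 genes were called, the DESeq2 Wald test called 1434 and the replicate number as a block 1452, and a fit of only the groups compared or of the 35 mice of the second experiment called 0. Without the 4 trained mice above 2000 CPM of Ttr the count was 8, and without 1 mouse in turn it was 74 to 1896. The replicate block in a fit of the 12 mice compared gave 818, of which 439 were among the 684, and the other alternatives gave 479 to 854. At HC zt15 (19 genes) the count was 58 with DESeq2, 0 in a fit of only the groups compared, with the replicate block or with the choroid plexus covariate, and 0 to 40 without 1 mouse. At ORM+1 h (0 genes) it was 25 with DESeq2, 1 in a fit of only the groups compared and 87 with the replicate block. For the difference between the diet effects at ORM+12 h and HC zt15 (32 genes) it was 732 with DESeq2, 73 with edgeR's expression filter, 17 with a minimum of 1 count, 0 in a fit of only the groups compared, 515 with the replicate block, 2 with the choroid plexus covariate, 117 with the length and GC offset, 0 without the 4 mice and 2 to 1259 without 1 mouse. The smaller fits hold fewer mice, but the cause of these shifts was not tested. The deviations of mice with the same replicate number correlated at r = 0.267, 0.175, -0.208, -0.409, -0.164 and 0.269 over 13104 genes. Only for numbers 1 and 6 did the mouse of the same number correlate best. Whether mice of the same number shared a batch cannot be told from these values. Of the 85 named genes called, 84 passed with DESeq2, 69 with the choroid plexus covariate, 64 with the length and GC offset, 32 without NC replicate 4, and 1, Ryr1, without the 4 mice. No named gene called at ORM+12 h changed sign under any alternative run, though these genes were chosen on the same mice. Genes below 10 counts over all 71 mice were not tested.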
